A study of Mus musculus with 38 samples.

Results

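Resident macrophages of the bone marrow are recognised by a set of marker genes, and 10 such genes are described here in mouse leukaemias driven by MLL fusion oncogenes. They are C1qa, C1qb, C1qc, Mrc1, Cd5l, Vcam1, Adgre1, Spic, Cd163 and Axl, of 18194 genes with a probe set of their own. Every probe set annotated to exactly 1 of these symbols was taken, which gave 16 probe sets of the 45101 on the array. C1qb and Vcam1 had 3 probe sets each, Spic and Axl had 2 each, and the other 6 genes had 1 each. A filter on dim signal kept 14 of the 16 and left out 1 probe set each of Spic and Axl. The brightest kept probe set of a gene stands for it below, and the others are given beside it. Levels of different probe sets depend on the probes and are not compared with each other.

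RNA of whole bone marrow was measured in 38 mice, each on its own Affymetrix array. In 34 mice leukaemia had been started by infecting c-kit+ marrow progenitors with a retrovirus for an MLL fusion and transplanting them into lethally irradiated C57BL/6 recipients of the same strain, male or female. There were 9 MLL-AF1p, 8 MLL-AF10, 5 MLL-GAS7, 5 MLL-AF9 and 7 MLL-ENL mice, and the reference was marrow of 4 normal mice, which the labels give as wild-type C57BL/6. All RNA was extracted with Trizol from cryopreserved cells, and leukaemic marrow was taken at euthanasia. Leukaemic recipients had been irradiated and transplanted, which the labels do not say of the normal mice, so the effects of leukaemia and of transplantation on host cells cannot be told apart. A host macrophage that survived irradiation and a macrophage descended from donor cells cannot be told apart in these data either. In whole marrow, fewer cells of a type and less RNA per cell cannot be told apart.

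Marrow macrophages sit at the centre of erythroblastic islands, where they take up the nuclei that maturing red cells expel, and they recycle the iron of old red cells. They also clear dying neutrophils and retain stem cells in their niche. C1q, the recognition protein of the classical complement pathway, is built from the chains encoded by C1qa, C1qb and C1qc and is made by macrophages rather than by the liver. Mrc1 encodes the mannose receptor, Cd163 the receptor for haemoglobin bound to haptoglobin, and Cd5l a secreted scavenger protein of tissue macrophages. Spic is an ETS transcription factor required for the iron-recycling macrophages of spleen and marrow.

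The 3 C1q genes lie side by side on mouse chromosome 4, with C1qc between C1qb and C1qa as coding neighbours in the RefSeq gene table. A promoter (250 bases before to 50 after the start) was listed for 7 of the 10 genes. The promoters shown are those of 2 C1q neighbours, whose levels moved together across the leukaemias, and of the lectin receptor Mrc1 and the scavenger protein Cd5l, which were low in all 34 leukaemias. Sequences are from RefSeq, build GRCm38.p6, written 5' to 3' on the gene's strand. Capitals mark GAGGAA, the core of sites for PU.1 and its ETS relatives such as Spic, and TGCTGA, a short form of the site of MAF factors, each searched on both strands.
C1qb promoter, chr4:136886151-136886450, minus strand: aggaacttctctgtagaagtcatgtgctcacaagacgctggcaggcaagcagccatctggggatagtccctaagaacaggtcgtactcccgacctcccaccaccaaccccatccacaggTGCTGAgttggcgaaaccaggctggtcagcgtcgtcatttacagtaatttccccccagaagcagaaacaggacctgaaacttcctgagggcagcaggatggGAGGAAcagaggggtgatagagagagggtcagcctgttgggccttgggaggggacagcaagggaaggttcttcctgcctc
C1qc promoter, chr4:136892865-136893164, minus strand: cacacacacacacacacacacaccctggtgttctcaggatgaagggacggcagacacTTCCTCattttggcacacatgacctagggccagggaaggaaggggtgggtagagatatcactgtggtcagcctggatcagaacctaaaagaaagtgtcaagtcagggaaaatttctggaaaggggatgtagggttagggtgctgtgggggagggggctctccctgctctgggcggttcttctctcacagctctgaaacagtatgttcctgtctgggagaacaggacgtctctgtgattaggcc
Mrc1 promoter, chr2:14229164-14229463, plus strand: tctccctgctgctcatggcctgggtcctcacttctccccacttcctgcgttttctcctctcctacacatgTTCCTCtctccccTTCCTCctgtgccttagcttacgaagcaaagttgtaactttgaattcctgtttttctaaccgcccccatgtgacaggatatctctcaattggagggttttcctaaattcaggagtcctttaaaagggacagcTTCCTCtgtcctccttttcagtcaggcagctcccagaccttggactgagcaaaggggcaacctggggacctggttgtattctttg
Cd5l promoter, chr3:87357631-87357930, plus strand: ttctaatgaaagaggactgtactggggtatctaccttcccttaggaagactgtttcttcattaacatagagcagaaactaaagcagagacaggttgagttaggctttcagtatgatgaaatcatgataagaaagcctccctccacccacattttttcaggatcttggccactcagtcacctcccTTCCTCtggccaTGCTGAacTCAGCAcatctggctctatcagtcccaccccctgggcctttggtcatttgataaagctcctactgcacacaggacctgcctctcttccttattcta
GAGGAA or its complement was found in 5 of the 7 promoters, in C1qb, C1qc, Mrc1, Cd5l and Axl, and in 28.3% of all 32851 promoters of this length. TGCTGA was found in 3 of the 7, in C1qb, Cd5l and Spic, and in 19.5% of all promoters. These matches describe letters in a window and say nothing about binding.

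Deposited intensities had been scaled by the authors to a trimmed mean of 500 on every array, and the median intensity ran from 129.2 to 208.3 in leukaemic and from 160.1 to 184.9 in normal arrays. Levels were compared as log2(intensity + 46.1) after every array was shifted to the same median, over 29004 kept probe sets. In this scaling the median difference of all kept probe sets between leukaemic and normal marrow was 0.14 on the log2 scale, against 0.01 with the values as deposited. The actin 3' to 5' ratio, a sign of RNA integrity, was 0.15 to 0.647 in leukaemic and 0.073 to 0.217 in normal arrays on the log2 scale. Arrays also fell into 2 sets by the levels of Rab5c, Tln1, Csnk1d and Vti1b, a split that no label names. Array set 1 held 16 leukaemias, and array set 2 held 18 leukaemias and all 4 normal mice, so the leukaemia result of each gene's lead probe set is also given for array set 2 alone.

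Of the 10 genes, 8 were lower in leukaemic than in normal marrow, 1 was higher and 1 was not called. The lower ones were C1qa, C1qb, C1qc, Mrc1, Cd5l, Vcam1, Spic and Axl, the higher one was Adgre1, and Cd163 did not pass the test. Among all kept probe sets 12.1% were called lower and 24.9% higher, as judged by limma's adjusted p (Benjamini-Hochberg, all 29004 probe sets, threshold 0.05). The median of the 10 differences was -1.79 on the log2 scale, against 0.14 over all kept probe sets. With array set 2 alone the counts were again 8 lower and 1 higher. These genes were chosen with earlier results of the same arrays known, so the count is a description of them. Spic passed the filter only with the help of the normal mice, where it was brighter.

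**Figure D1:**
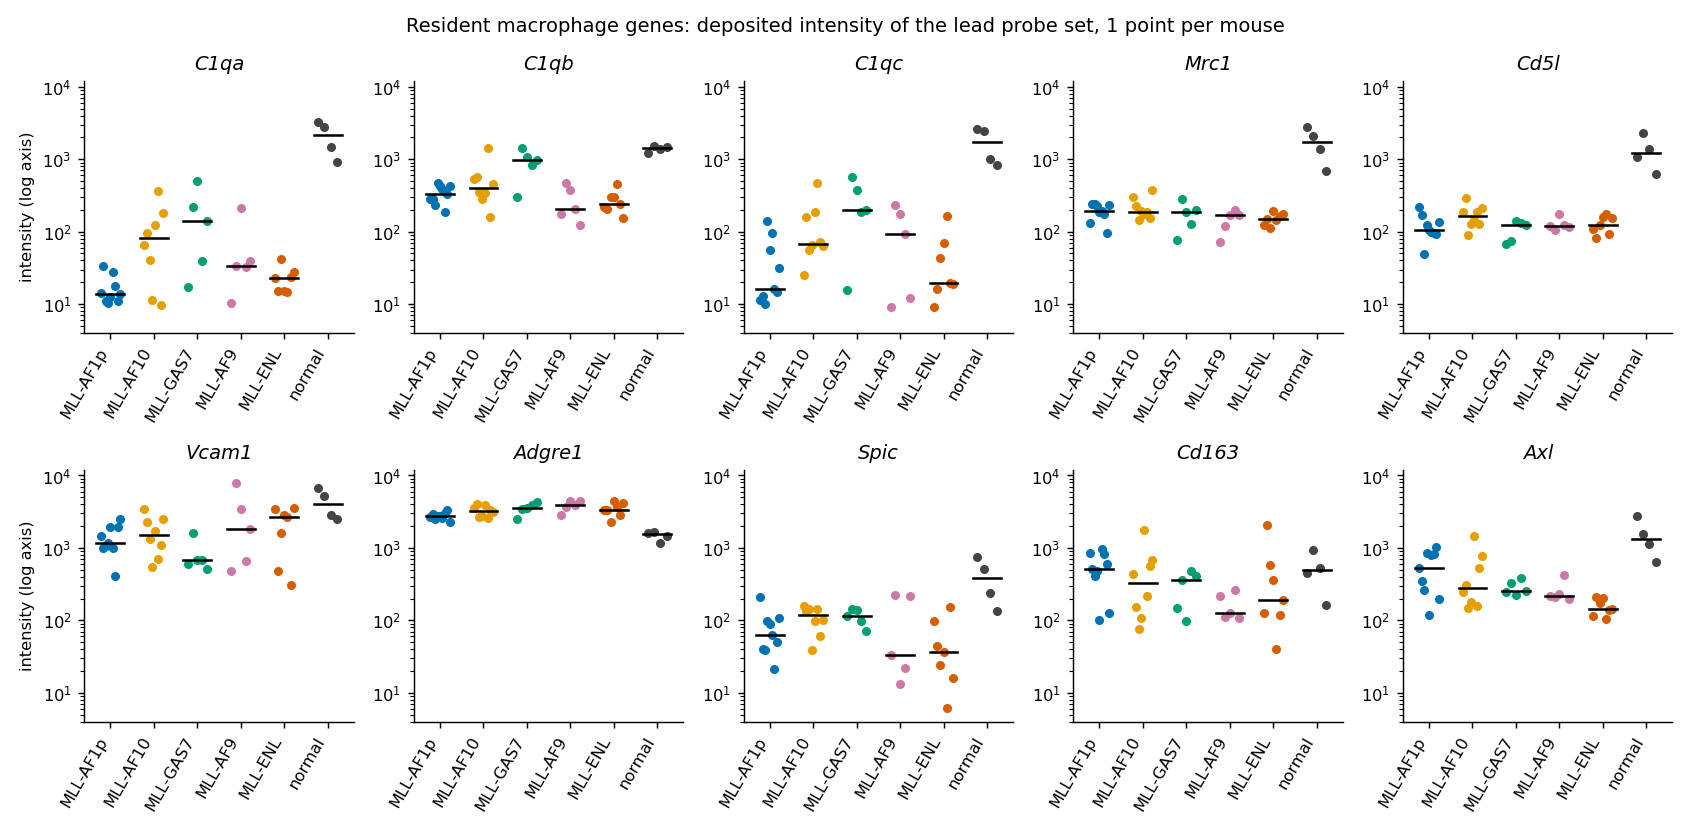
Deposited intensity on a log axis of the lead probe set of each gene, with 1 point per mouse, a bar at the group median, the 5 leukaemia cohorts at the left and normal marrow at the right. For C1qa, C1qc, Mrc1 and Cd5l all 34 leukaemias lie below all 4 normal mice, for Adgre1 all 34 lie above them, and for Cd163 the groups overlap.

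C1qa encodes the A chain of C1q. Its intensity had a lowest value of 9.6, a median of 27.8 and a highest value of 499.7 in the 34 leukaemias, against 3212.6, 2813.5, 903.2 and 1458.9 in normal mice 1, 2, 3 and 4. The brightest leukaemia, MLL-GAS7_405, was still below the dimmest normal mouse. In 25 of the 34 leukaemias the signal was under 46.1, the value added before taking logs, so the fold change understates the difference. On the log2 scale C1qa was lower by a difference of -4.16 ± 0.38 (SE), 17.9-fold (adjusted p = 1.97e-11), and -4.18 with array set 2 alone.

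C1qc, the C chain, followed the same course. Its intensity had a lowest value of 9.1, a median of 59.4 and a highest value of 559.8 in the leukaemias, against 2631.3, 2483.6, 825.4 and 1000.9 in normal mice 1 to 4. The groups did not overlap, and 15 of the 34 leukaemias were under 46.1. The difference was -3.52 ± 0.44 on the log2 scale, 11.5-fold lower (adjusted p = 4.99e-08), and -3.46 with array set 2 alone.

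C1qb, the B chain, was read by 3 probe sets that differed in how far they fell. The brightest had an intensity of 124.9 at the lowest, 337.65 at the median and 1449.6 at the highest in leukaemias, against 1237.2, 1513.5, 1461.0 and 1377.4 in normal mice 1 to 4. Of the 34 leukaemias 33 lay below all normal mice, and MLL-AF10_799A lay above them all after arrays were aligned. That probe set was lower by -1.63 ± 0.30 on the log2 scale, 3.11-fold (adjusted p = 3.34e-05), and -1.69 with array set 2 alone. The other C1qb probe sets were lower by -2.05 and -2.38, and in both all 34 leukaemias lay below all normal mice. The brightest is an _x_at probe set, a class whose probes can also read related transcripts, so its value is uncertain. Normal mice differed from each other little at this probe set (SD 0.16 on the log2 scale), against 0.88 for C1qa and 0.90 for C1qc.

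Mrc1, the mannose receptor, was low in every leukaemia and varied little among them. Its intensity ran from 72.3 through a median of 173.75 to 376.7 in leukaemias, against 2781.0, 2072.2, 694.5 and 1403.6 in normal mice 1 to 4. The groups did not overlap. The difference was -2.76 ± 0.22 on the log2 scale, 6.79-fold lower (adjusted p = 5.33e-13), and -2.74 with array set 2 alone. Mrc1 averaged 7.79 ± 0.36 on the log2 scale in leukaemias (SD, n = 34) and 10.52 ± 0.88 in normal mice (SD, n = 4). The fit used 1 spread shared by all groups, so with normal mice this uneven the SE and p overstate the precision.

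Cd5l, the secreted scavenger protein, behaved like Mrc1 in size and evenness. Its intensity ran from 49.5 through 123.95 to 293.5 in leukaemias, against 1071.8, 2327.6, 622.1 and 1369.0 in normal mice 1 to 4, with no overlap. It was lower by -2.75 ± 0.21 on the log2 scale, 6.7-fold (adjusted p = 3.9e-13), and by -2.74 with array set 2 alone. Its SD was 0.80 in normal mice and 0.37 in leukaemias on the log2 scale, so the SE and p overstate the precision here too. C1qa, C1qc, Mrc1 and Cd5l were thus the 4 genes whose lead probe set had all 34 leukaemias below all normal mice, which held for 3.8% of all kept probe sets.

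Cd163, the scavenger receptor for haemoglobin, did not separate leukaemic from normal marrow. Its intensity ran from 40.0 through 310.65 to 2041.1 in leukaemias, against 455.7, 933.9, 162.4 and 528.5 in normal mice 1 to 4. Of the leukaemias 11 lay below all normal mice and 3 above all of them. The difference was -0.48 ± 0.55 on the log2 scale (adjusted p = 0.541), and -0.69 with array set 2 alone (adjusted p = 0.388). Its spread between mice of a group, an SD of 1.12 on the log2 scale, was above that of 99.7% of the kept probe sets, so a moderate difference was not detectable with 4 normal mice.

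Vcam1, an adhesion molecule that holds blood cells to marrow macrophages, endothelium and stroma, was lower with overlap. Its intensity ran from 303.1 through 1402.7 to 7805.0 in leukaemias, against 6706.4, 5187.2, 2513.4 and 2834.6 in normal mice 1 to 4. Of the leukaemias 24 lay below all normal mice, and MLL-AF9_308 lay above them all. The difference was -1.44 ± 0.51 on the log2 scale, 2.72-fold lower (adjusted p = 0.0247), and -1.72 with array set 2 alone. The call was lost without normal mouse 1, at -1.19, and without normal mouse 2, at -1.28. The other Vcam1 probe sets were lower by -1.31 (adjusted p = 0.0172) and -1.40 (adjusted p = 0.00643).

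Adgre1, an adhesion receptor of the G protein coupled class and the most used surface marker of mouse macrophages, carried by monocytes and eosinophils too, went the other way. Its intensity ran from 2252.5 through 3349.45 to 4508.9 in leukaemias, against 1611.4, 1678.7, 1456.7 and 1187.3 in normal mice 1 to 4. All 34 leukaemias lay above all normal mice, which held for 3.72% of kept probe sets. The difference was 1.27 ± 0.16 on the log2 scale, 2.42-fold higher (adjusted p = 3.85e-08), and 1.35 with array set 2 alone. Quantile normalization gave 1.12, and the deposited values without a shift gave 1.15. Adgre1 rests on 1 probe set, of the _a_at class that can read several transcripts of a gene. It was also the steadiest of the 10 genes, with an SD between mice of a group of 0.29 on the log2 scale, larger than that of 23.4% of kept probe sets.

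Spic, the ETS factor of iron-recycling macrophages, was dim. Its lead probe set was above the array's median in 3 of the 34 leukaemias and 3 of the 4 normal mice. The filter asked for 4 arrays, so Spic was kept only with the help of the normal mice, where it was brighter. Its intensity ran from 6.1 through 94.05 to 224.3 in leukaemias, against 752.3, 517.3, 135.6 and 242.1 in normal mice 1 to 4. Of the leukaemias 24 lay below all normal mice, all 34 lay below the normal median, and 12 were under 46.1. It was lower by -1.53 ± 0.34 on the log2 scale, 2.89-fold (adjusted p = 0.000455), and by -1.57 with array set 2 alone. Normal mice had an SD of 1.01 and leukaemias 0.64 on the log2 scale, so the shared spread overstates the precision. The probe set that the filter left out was lower by -1.75 ± 0.23 when no filter was applied (adjusted p = 1.65e-07). That probe set was under 46.1 in 32 of the 34 leukaemias. Spic has no probe set outside the _x_at and _s_at classes, whose probes can also read other transcripts, so its values are uncertain.

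Axl, a receptor kinase that binds apoptotic cells through its ligand Gas6, ran from 105.1 through 238.45 to 1443.1 in leukaemias, against 2794.9, 1542.6, 633.5 and 1133.3 in normal mice 1 to 4. Of the leukaemias 28 lay below all normal mice and 33 below the normal median. The difference was -1.94 ± 0.39 on the log2 scale, 3.84-fold lower (adjusted p = 0.00015), and -1.94 with array set 2 alone. The probe set that the filter left out was at 0.11 ± 0.18 without the filter (adjusted p = 0.718). It never exceeded its array's median on any of the 38 arrays, so it carries little signal.

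Against normal marrow, each of the 5 fusions gave nearly the same list, and the 5 comparisons share the 4 normal mice. MLL-AF1p had 8 genes lower and 1 higher, where 11.3% of kept probe sets were lower and 20.6% higher. MLL-AF10 had 7 lower and 1 higher, against 10.8% and 21.9% of kept probe sets. MLL-GAS7 had 7 and 1, against 9.33% and 13.3%. MLL-AF9 had 7 and 1, against 9.02% and 18.7%. MLL-ENL had 7 and 1, against 10.3% and 25.1%. C1qa, C1qc, Mrc1, Cd5l, Spic and Axl were lower and Adgre1 was higher in each of the 5 cohorts, and Cd163 was called in none.

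**Figure D2:**
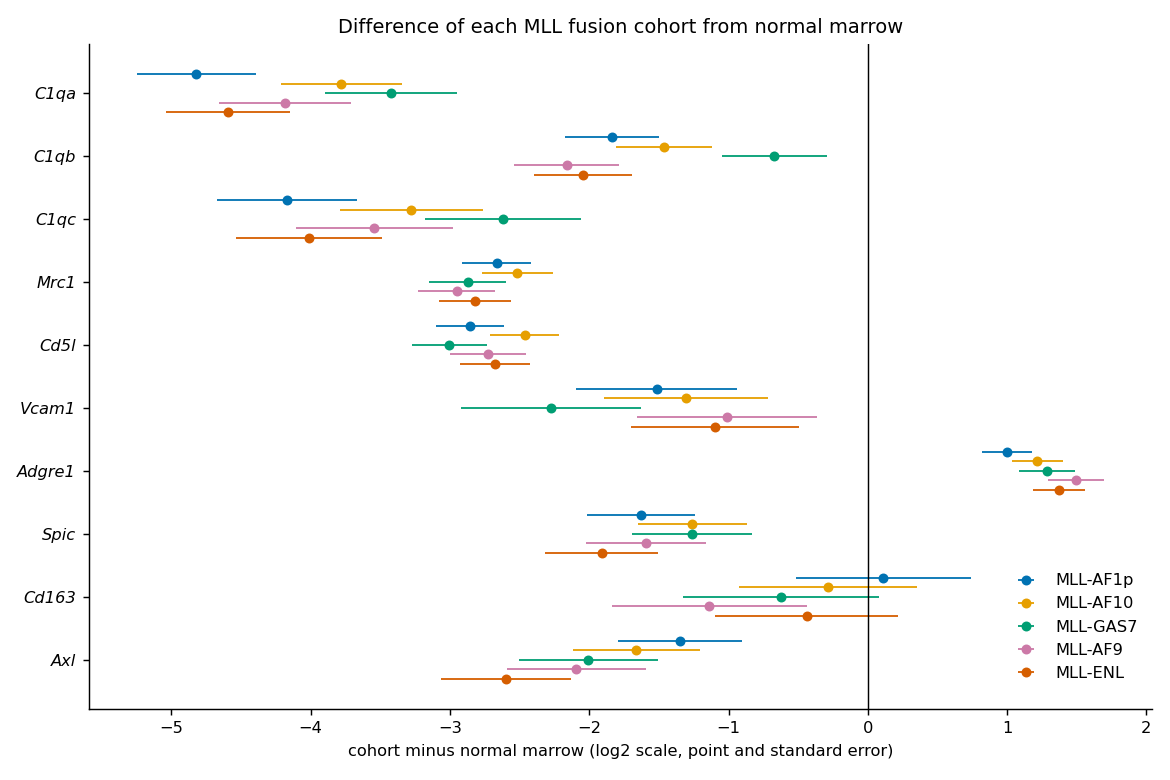
Difference of each cohort from normal marrow on the log2 scale for each gene, as the limma estimate with its standard error, with cohorts in colour and a line at 0. Adgre1 lies right of the line in all 5 cohorts, and C1qb in MLL-GAS7, at -0.67, lies closest to the line among the C1q values.

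C1qa differed from normal most in MLL-AF1p, by -4.82 ± 0.43 on the log2 scale, and least in MLL-GAS7, by -3.43 ± 0.47, with MLL-AF10 at -3.78 ± 0.43, MLL-AF9 at -4.18 ± 0.47 and MLL-ENL at -4.59 ± 0.44. Mrc1 was between -2.95 in MLL-AF9 and -2.52 in MLL-AF10, and Cd5l between -3.01 in MLL-GAS7 and -2.46 in MLL-AF10. Axl was lowest in MLL-ENL, at -2.60 ± 0.47, and least reduced in MLL-AF1p, at -1.35 ± 0.45 (adjusted p = 0.0184). Adgre1 was between 1.002 in MLL-AF1p and 1.49 in MLL-AF9. The range over the fusions was narrower in Mrc1 and Cd5l than in C1qa and Axl. Their SD between mice of a group was smaller too, 0.42 and 0.41 against 0.75 and 0.79 on the log2 scale. For C1qa that SD pools 0.14 in MLL-AF1p and 0.16 in MLL-ENL with 0.88 to 1.20 in the other groups. None of these genes passed the F test among the cohorts in the main fit.

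The exceptions were C1qb and Vcam1. C1qb in MLL-GAS7 was at -0.67 ± 0.38 by its brightest probe set (adjusted p = 0.211), but at -1.38 (adjusted p = 0.011) and -1.44 (adjusted p = 0.0326) by the other probe sets. Vcam1 was called in MLL-AF1p at -1.52 (adjusted p = 0.0422) and in MLL-GAS7 at -2.28 (adjusted p = 0.00904). By its brightest probe set it was not called in MLL-AF10 at -1.31, in MLL-AF9 at -1.01 or in MLL-ENL at -1.10 (adjusted p = 0.0878, 0.262 and 0.163). The other Vcam1 probe sets were called by limma in MLL-AF10, at -1.41 (adjusted p = 0.0289) and -1.49 (adjusted p = 0.0137). Neither was called in MLL-AF9 or MLL-ENL.

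Within array set 2 alone, where cohorts keep 2 to 5 mice, several of the smaller differences were no longer called. These were Vcam1 at -1.41 and Axl at -1.32 in MLL-AF1p, Spic at -1.34 in MLL-GAS7, and Spic at -1.43 and Axl at -1.91 in MLL-AF9. Vcam1 in MLL-AF10, at -1.79, was called there. Calls also rested on normal mice 1 and 2: without mouse 1, Axl in MLL-AF1p was at -0.995, Spic in MLL-AF10 at -0.91 and Spic in MLL-GAS7 at -0.92, none of them called. Without mouse 2 the same 3 differences were -1.25, -1.05 and -1.06, also not called. With the actin ratio as a term in the model, Axl was not called in MLL-AF1p, at -1.04, or in MLL-AF10, at -1.15, and C1qb was called in MLL-GAS7, at -1.12.

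Among the 5 cohorts themselves, C1qb alone of the 10 genes passed the F test (adjusted p = 0.0195), where 6.28% of kept probe sets passed. Its median intensity was highest in MLL-GAS7 at 961.6, followed by MLL-AF10 at 402.05, MLL-AF1p at 332.3, MLL-ENL at 244.1 and MLL-AF9 at 207.5, against 1419.2 in normal marrow. MLL-GAS7 was the highest cohort, and its step above MLL-AF10, the next, was larger than the spread within groups. The steps between the other 4 cohorts were within that spread. The F test did not pass with array set 2 alone (adjusted p = 0.114) or with array set 1 alone (adjusted p = 0.504). The other C1qb probe sets had F adjusted p values of 0.133 and 0.0787.

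Set against the mean of the other 4 cohorts, MLL-GAS7 was higher in C1qb by 1.20 ± 0.27 on the log2 scale, 2.3-fold (adjusted p = 0.00821), and no other gene was called, where 3.45% of kept probe sets were. With array set 2 alone the C1qb difference was 1.56 (adjusted p = 0.0405), and with array set 1 alone it was 0.77 and not called (adjusted p = 0.503). By the other probe sets it was 0.84 (adjusted p = 0.109) and 1.17 (adjusted p = 0.0611). The C1qb intensity was 301.8 in MLL-GAS7_406, against 1078.8 in MLL-GAS7_405, 1406.9 in MLL-GAS7_407, 819.5 in MLL-GAS7_408 and 961.6 in MLL-GAS7_410. MLL-GAS7_406 stood well below the other 4.

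C1qa and C1qc had the same pattern without reaching the threshold, at 0.92 ± 0.34 (adjusted p = 0.144) and 1.13 ± 0.41 (adjusted p = 0.125). C1qa had intensities of 499.7, 17.1, 221.5, 39.2 and 139.4 in the same 5 mice, in the order of their numbers. C1qc had 381.2, 15.8, 559.8, 188.7 and 196.7 in that order. MLL-GAS7_406 was the lowest of the 5 in all 3 C1q genes and also in Mrc1, Cd5l and Adgre1. Without it all 3 C1q genes were called against the other cohorts, C1qa at 1.24 and C1qc at 1.59. That mouse was singled out for its low C1q values, so leaving it out had to raise the cohort mean, and these calls carry no support. Over all mice left out in turn, C1qa went down to 0.48 and C1qc to 0.87. Neither gene was called in any other of these fits.

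Of the cohorts, MLL-GAS7 also had the highest median sum of dendritic cell markers. The summed intensity of 8 such markers was 7843.0 to 33067.8 in the MLL-GAS7 mice, against 1750.0 at the lowest and 8919.2 at the highest in the other cohorts. MLL-GAS7_406 had the lowest sum of its cohort and MLL-GAS7_408 the highest. The highest C1qb and C1qc of the cohort were in MLL-GAS7_407, which had a dendritic cell sum of 8273.1. Summed stroma and endothelium markers were highest in MLL-GAS7 too, with a median of 4517.0 against 3048.6 to 3662.9 in the other cohorts. The part of these cell types in the C1q result was not tested.

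For the remaining cohorts against the other 4, 0 of the 10 genes were called by limma. The shares of kept probe sets called were 1.26% for MLL-AF1p, 0.445% for MLL-AF10, 0.355% for MLL-AF9 and 3.83% for MLL-ENL. At an unadjusted p under 0.05 the counts were 1 gene each for MLL-AF10 and MLL-AF9, 2 for MLL-ENL, and 4 each for MLL-AF1p and MLL-GAS7. The shares of kept probe sets at that threshold were 12.2% for MLL-AF10, 7.49% for MLL-AF9, 20.5% for MLL-ENL, 12.1% for MLL-AF1p and 16.8% for MLL-GAS7, so for MLL-AF10, MLL-AF9 and MLL-ENL the counts were near the background. For MLL-GAS7 the genes were C1qb at 1.20, C1qc at 1.13, C1qa at 0.92 and, in the other direction, Vcam1 at -1.04. For MLL-AF1p they were C1qa at -0.82, C1qc at -0.81, Adgre1 at -0.34 and Axl at 0.74 on the log2 scale. They were Cd5l at 0.35 for MLL-AF10, C1qb at -0.66 for MLL-AF9, and Axl at -0.82 and C1qb at -0.51 for MLL-ENL. In order of group means, MLL-GAS7 stood next below normal marrow and MLL-AF10 next below MLL-GAS7 in all 3 C1q genes, and MLL-AF1p was last in C1qa and C1qc. Neighbouring cohorts in the order did not differ beyond the spread within groups in any gene other than C1qb.

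Across the 34 leukaemias the genes did not move as 1 group. After each cohort's mean was subtracted, C1qb and C1qc had a Pearson r of 0.811 (Spearman rho 0.773, n = 34 mice), and 0.731 without the 2 mice farthest from the median of C1qb. It was 0.954 over the 16 mice of array set 1 and 0.817 over the 18 of array set 2. C1qa had r of 0.627 with C1qb and 0.572 with C1qc. The 3 neighbouring genes thus varied together most clearly as a pair, with C1qa, near the floor in most mice, less tightly.

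**Figure D3:**
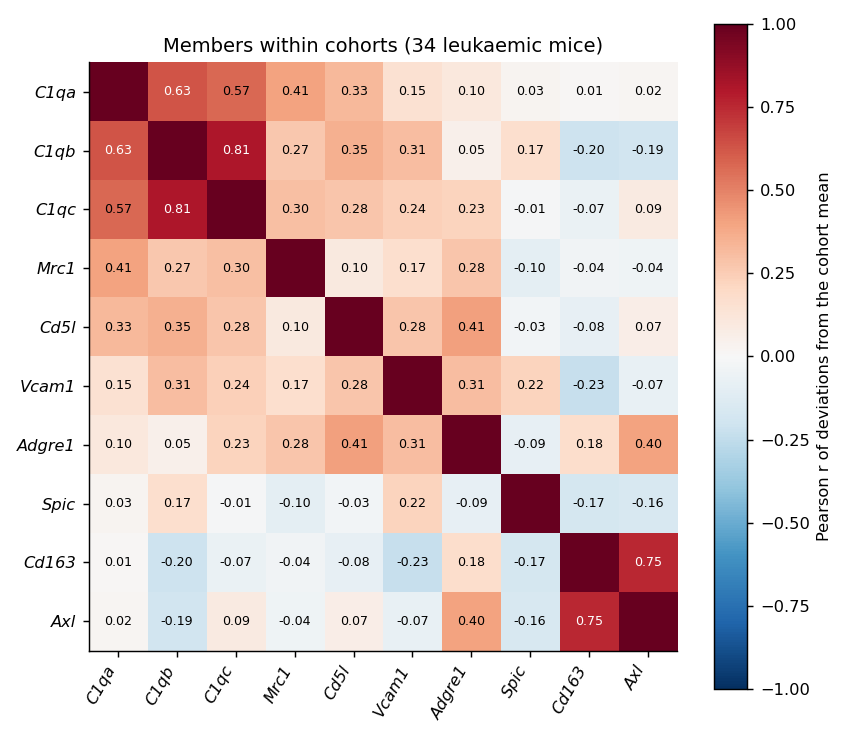
Pearson r between the lead probe sets of the 10 genes over the 34 leukaemic mice, computed on log2 levels after each cohort's mean was subtracted, with red for positive and blue for negative values. The C1q genes form a block, and Cd163 and Axl form a pair at 0.75.

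Cd163 and Axl formed another pair, with r of 0.753 (rho 0.785, n = 34) and 0.751 without the 2 mice farthest from the median of Cd163. It was 0.429 in array set 1 and 0.919 in array set 2. MLL-AF10_797A was the highest of its cohort in both, with an intensity of 1763.5 for Cd163 and 1443.1 for Axl. MLL-ENL_760 was likewise the highest of its cohort in both, with the highest Cd163 of all mice at 2041.1 and an Axl of 207.7. C1qb had an r of -0.205 with Cd163 and -0.189 with Axl over the 34 mice. For C1qc these values were -0.067 and 0.092, and for C1qa 0.014 and 0.021. The r with Axl differed by array set. It was 0.284 in array set 1 and -0.359 in array set 2 for C1qb, and 0.394 and -0.018 for C1qc. Mrc1, low in every leukaemia, had r of 0.101 with Cd5l and -0.038 with Cd163, and its highest r with another of the 10 genes was 0.406, with C1qa. Its r with C1qa, C1qb and C1qc was 0.659, 0.636 and 0.655 in array set 1. In array set 2 it was 0.326, 0.126 and 0.237. These values share array and RNA quality within a mouse and are descriptions.

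**Figure D4:**
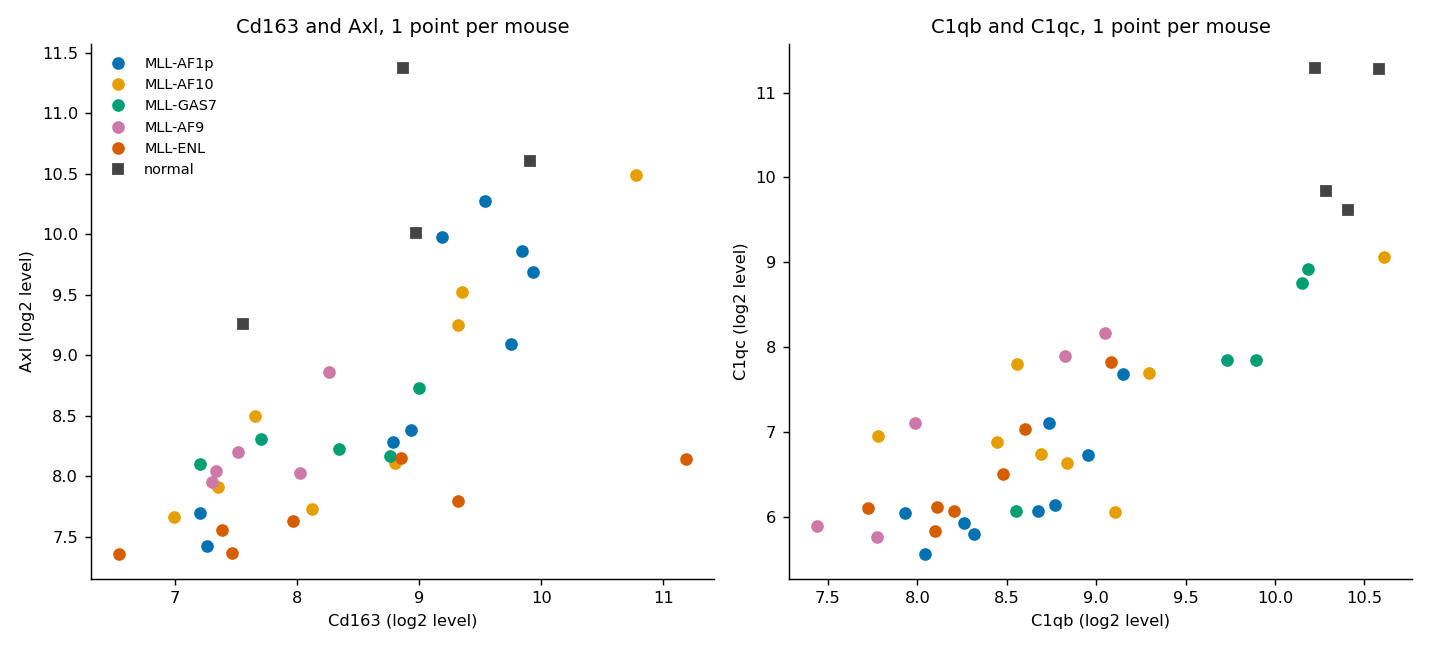
Log2 levels of Axl against Cd163 at the left and of C1qc against C1qb at the right, with 1 point per mouse, circles for the 5 leukaemia cohorts and squares for normal marrow. The leukaemia highest in Axl is MLL-AF10_797A, the one highest in Cd163 is MLL-ENL_760, and the one highest on this scale in both C1qb and C1qc is MLL-AF10_799A.

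The genes outside the 10 whose pattern within cohorts was most like the mean of the 3 C1q genes were Maf (r 0.697), Klra2 (0.692), Gda (0.656), Clec4e (0.62), Spire1 (0.616), Clec4d (0.614), Kctd17 (0.596) and Clec4n (0.59), over 34 mice. For Vcam1 they were Stfa3 (0.774), Tgm2 (0.771), Ces1d (0.764) and 4930500A05Rik (0.749). For Adgre1 they were Mob1a (0.765), Mob3a (0.742), Adar (0.725) and Rab29 (0.72). Without the 2 mice farthest from the median, r for the genes named with C1q was between 0.376 (Kctd17) and 0.624 (Maf). For those named with Vcam1 and Adgre1 it was between 0.668 and 0.779. All were picked for the highest r over the kept probe sets with 1 symbol, so the values run high and carry no test.

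MLL-AF10_799A was the highest of its cohort in C1qa at 366.4, in C1qb at 1449.6 and in C1qc, where its log2 level was 9.07 and the cohort mean 7.23. The cohort's median intensity was 80.4 for C1qa and 402.05 for C1qb. It also had the highest actin 3' to 5' ratio of all arrays, 0.647 on the log2 scale, and whether that bears on its C1q values was not tested. MLL-AF9_308 had the highest Vcam1 of all mice at 7805.0, with the other mice of its cohort at 3461.5, 1851.3, 649.8 and 482.7.

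The 4 normal mice also differed, and in the same order for most of the genes. Mouse 3 was the lowest of the 4 in 8 genes, C1qa, C1qc, Mrc1, Cd5l, Vcam1, Spic, Cd163 and Axl. Mouse 1 was the highest in 6, C1qa, C1qc, Mrc1, Vcam1, Spic and Axl. Over the 17 other resident macrophage genes measured, the summed intensity was 18430.0, 15340.5, 10706.5 and 11762.4 in mice 1 to 4. The stroma and endothelium markers gave 11918.4, 9971.0, 7824.7 and 8103.9 in mice 1 to 4, the same order, whereas the monocyte markers gave 62070.5, 81678.7, 100689.1 and 80188.6, with mouse 3 highest and mouse 1 lowest. The hybridisation controls averaged 10.73 in mouse 1 and 12.49 in mouse 3 on the log2 scale, and their part in this order was not tested.

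Other genes of the resident macrophage came from a list of 24, of which 17 were measured. In leukaemia against normal 8 of the 17 were lower and 1 was higher, where 12.1% and 24.9% of kept probe sets were. The median was -0.25 on the log2 scale, against 0.14 for all kept probe sets. Without normal mouse 1 the lower count was 5. The largest differences were in Slc40a1, the iron exporter ferroportin, at -2.36 (adjusted p = 6.88e-06), Gas6, the ligand of Axl, at -2.34 (adjusted p = 4.46e-12), Hmox1, the haem oxygenase that frees iron, at -2.13 (adjusted p = 0.000326), and Maf, a macrophage transcription factor, at -1.41 (adjusted p = 0.000102). The single higher gene was Stab1, a scavenger receptor, at 0.77 (adjusted p = 0.0281). It was not called with the values as deposited, without normal mouse 1 or 4, with array set 2 alone, or with the actin ratio as a term. Its only probe set is of the _a_at class, so without _x_at, _s_at and _a_at probe sets it was not tested. Timd4, Clec4f, Marco, Ccl24 and Cd209b were on the array but too dim to be kept.

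Monocyte markers moved with Adgre1 and opposite to the lower genes. Some of them, such as Cd68, are carried by macrophages too, so the list does not tell monocytes from macrophages. Of 14 measured 11 were higher and 0 lower by limma, against 24.9% and 12.1% of kept probe sets, with a median of 1.07. Ms4a6c rose 4.66-fold, Ly86 3.44-fold, Cd68 2.92-fold and Cx3cr1 2.91-fold. The count was 7 without normal mouse 4 and 9 with array set 2 alone. The summed intensity of the 14 was 79588.4 to 250705.2 in leukaemias and 62070.5 to 100689.1 in normal mice. Their part in the Adgre1 result was not tested.

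Complement genes other than C1q were called in both directions. Of 11 measured 5 were higher and 4 lower, against 24.9% and 12.1% of kept probe sets, with a median of 0.35. The higher ones included Cd93 at 1.76 and Cfp, properdin, at 1.44, and the lower ones included Serping1, the inhibitor of the C1 complex, at -2.04 and C2 at -1.18. The lower count was 2 without normal mouse 2, without normal mouse 3, with array set 2 alone and with array set as a term. Without _x_at, _s_at and _a_at probe sets the lower count was 2 and the higher count 3. Of 13 measured genes for uptake of apoptotic cells other than Axl and C1q, 5 were higher and 4 lower, with a median of 0.31. The same shares of kept probe sets apply. Without _x_at, _s_at and _a_at probe sets the higher count of this list was 3, and genes with only an _a_at probe set, Stab1 among them, were not tested there. Cd36, a scavenger receptor that erythroid and other cells also carry, was 20.9-fold lower (adjusted p = 2.1e-13), Mertk, a relative of Axl, was at -1.15 (adjusted p = 0.0167), and Itgb5 was at 1.33 (adjusted p = 1.96e-08).

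Markers of other cell types moved between leukaemic and normal marrow at the same time. Of all kept probe sets 12.1% were lower and 24.9% higher. Of 8 erythroid markers 7 were lower, with summed intensities of 1909.5 to 4473.1 in leukaemias and 76076.1 to 109772.3 in normal mice. Of 13 stroma and endothelium markers 6 were lower, among them Cxcl12 at -3.26 and Adipoq at -3.16, and 1 was higher (0 without normal mouse 4). The higher one has only an _a_at probe set, so it was not tested without _x_at, _s_at and _a_at probe sets. The sums of these markers were 2514.1 to 9037.0 in leukaemias and 7824.7 to 11918.4 in normal mice. Eosinophil markers had 2 of 3 lower, Prg2 and Epx, and Siglecf higher. Dendritic cell markers had 3 of 8 lower, osteoclast markers 2 of 6 and neutrophil markers 3 of 7, with none higher by limma in these 3 lists. The osteoclast count was 1 without _x_at, _s_at and _a_at probe sets, where Acp5, which has only an _a_at probe set, was not tested. With array set 2 alone 7 erythroid, 8 stroma and endothelium and 2 eosinophil markers were lower. Dendritic cell, osteoclast and neutrophil markers then had 3 lower each. The part of these cell types in the differences of the 10 genes was not tested.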

How the data were processed

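Total RNA of whole marrow was labelled with biotin and hybridised to 1 array per mouse. The deposited values are linear intensities, which the authors had scaled to a trimmed mean of 500, as the values show. Which software made them is not stated in the sources read. Of 45101 probe sets 64 are controls, 34958 carry 1 symbol in the platform annotation, 932 several and 9147 none. A value of 46.1, the 25th percentile of all intensities, was added before taking log2, and arrays were shifted to a common median. Fold changes are on that scale, which understates changes of dim genes. Probe sets above their array's median on at least 4 arrays were kept. Groups came from the labels, which give a mouse number for each sample, so replicates are taken as separate mice. The number of arrays limits the precision.

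limma 3.58.1 in R 4.3.3 fitted 6 group means over 29004 probe sets with moderated 2-sided tests, on 32 residual degrees of freedom (37.12 once the prior was added). Each probe set had 1 spread shared by all groups, although normal mice varied more than leukaemias in Mrc1, Cd5l and Spic. Leukaemia is the unweighted mean of the 5 cohort means. A call is a p below 0.05 after Benjamini-Hochberg adjustment across the kept probe sets. On simulated data with 29004 probe sets, 67, 67 and 66 were changed by 1.5-fold, 2-fold and 4-fold. The leukaemia comparison recovered 19.4%, 74.6% and 98.5% of them, and 7.25% of calls were false, more than the threshold of 0.05 aims at. The noise was independent, normal and equal in all groups. In the real comparison 12.1% of probe sets were called lower and 24.9% higher, so these shares describe the simulated setting only.

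All 10 genes are named. From each other list up to 4 called genes with the largest change, or any gene of a list of at most 10, could be named, and the closest patterns were the 8 highest r for C1q and the 4 highest for Vcam1 and Adgre1. The members and lists were chosen with earlier results of these data known. Alternatives were another scaling, pseudocount, filter, choice of probe set, variance model, array weights and leaving out each array. Array set and actin ratio as terms, each array set alone, and leaving out the 5 arrays with the brightest hybridisation controls were added after the data were seen.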

Additional observations from a re-analysis of the deposited data

Results flagged for a closer look

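In 60 combinations of gene and group, 4 had 1 mouse far from the others of its group, and chance gives about 1 in 20. In MLL-AF9, C1qa was at a log2 level of 8.115 in MLL-AF9_301, against 5.79 to 6.433 in the other 4 mice. Cd5l in the same mouse was at 7.869, against 7.294 to 7.402. Axl in MLL-AF9_305 was at 8.863, against 7.952 to 8.202. C1qb in MLL-GAS7_406 was at 8.554, against 9.731 to 10.184 in the other 4.

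Cohorts differed in C1qb, with an F adjusted p of 0.0195 by limma. MLL-GAS7 was higher than the mean of the other 4 cohorts in C1qb by 1.20 on the log2 scale, and the other C1qb probe sets were not called.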

How the results depend on the processing

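Among 5638 recomputed differences, 31 were no longer called and 9 were newly called. In 80 the sign changed, and 0 of these were called under either setting. Leaving out each mouse in turn gave 7 to 8 lower genes in leukaemia, 6 to 8 in MLL-AF1p, 6 to 7 in MLL-AF10, the same range for MLL-GAS7, and always 7 for MLL-AF9 and for MLL-ENL. The count of genes differing among the 5 cohorts, 1 as reported, was 2 with the values as deposited, with a pseudocount of 16 and with array weights, each time through C1qa. It was 0 with the mean of a gene's probe sets, without _x_at, _s_at and _a_at probe sets, when the 5 arrays brightest in hybridisation controls were left out, and with array set 2 or array set 1 alone. It was 0 to 3 with 1 mouse left out: 0 without MLL-GAS7_405, MLL-GAS7_407 or MLL-GAS7_410 (C1qb F adjusted p = 0.061, 0.0582 and 0.0527) and 3 without MLL-GAS7_406. The count for MLL-GAS7 against the other 4, 1 as reported, was 0 without _x_at, _s_at and _a_at probe sets, 0 without the 5 brightest arrays, 0 with array set 1 alone, and 1 to 3 with 1 mouse left out, 3 without MLL-GAS7_406. The count of higher genes against normal was 0 in leukaemia and in each cohort without _x_at, _s_at and _a_at probe sets, since the only probe set of Adgre1 is of that class. Spic had no probe set left in that alternative either and was not tested there. C1qb in MLL-GAS7 against the other 4 was still called with the mean of its probe sets, at 1.07. The cause of the lost C1qb calls was not tested. Vcam1 in MLL-AF1p lost its call without a filter, with a pseudocount of 16, with a trended prior, without normal mouse 1 or 2, and when any 1 of 5 MLL-AF1p mice (MLL-AF1p_801, MLL-AF1p_804, MLL-AF1p_806, MLL-AF1p_808 or MLL-AF1p_811) was left out. Spic in MLL-GAS7 lost it with a pseudocount of 16 and without MLL-GAS7_408 or MLL-GAS7_410. No paired analysis was possible because the mouse numbers are not shared between cohorts and normal mice. Signals under 46.1 limit what can be said of C1qa, C1qc and Spic differences among leukaemias.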
